A study of Bos taurus with 52 samples.

Results

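The 8 genes described here encode proteins that detect foreign or misplaced nucleic acid inside cells, or that pass the alarm on: DDX58, IFIH1, DHX58, ZBP1, TLR3, TLR7, MAVS and MYD88. They were chosen by name, and all 8 had a row among the 31651 named genes of the count table. They were followed through bovine endometrium, the inner lining of the uterus, and through the conceptus, the embryo with its elongating outer membranes. The heifers fell into 3 fertility classes, which are abbreviated HF for high fertile, SF for subfertile and IF for infertile, and the study addressed how the uterus of such animals bears on conceptus growth. Endometrium came from 5 animals in each of 5 groups: non-pregnant HF (NP-HF), SF (NP-SF) and IF (NP-IF) heifers, and HF (P-HF) and SF (P-SF) heifers at day 17 of pregnancy. The sources used here give neither the day at which non-pregnant heifers were sampled nor the way in which heifers were classed. Conceptuses of day 17 were 10 from SF recipients (C-SF), 10 long ones from HF recipients (C-HF-long) and 7 short ones from HF recipients (C-HF-short). They came from 19 recipients, 8 of which gave 2 conceptuses each, so that conceptuses are not all independent animals.

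RIG-I, the product of DDX58, and MDA5, the product of IFIH1, are helicases that bind viral RNA in the cytosol. LGP2, the product of DHX58, belongs to the same family but lacks the signalling domains and tunes the other two. RIG-I and MDA5 signal through MAVS, an adaptor on mitochondria, to the kinases and factors that switch on type I interferon genes. TLR3 and TLR7 read RNA inside endosomes; TLR7 signals through the adaptor MYD88, which most other Toll-like receptors and the interleukin-1 receptor also use, while TLR3 uses a different adaptor, TICAM1. ZBP1 binds nucleic acid in the left-handed Z form and can start necroptosis, an inflammatory form of cell death. Several of these genes are themselves switched on by interferon, and in ruminants the trophectoderm of the elongating conceptus secretes a type I interferon, interferon tau, as the signal of pregnancy to the uterus.

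Total counts were 17.1 to 27.3 M reads for endometrium and 20.5 to 47 M reads for conceptuses. The tissue labels were checked against defining markers: the uterine factors HOXA10 and HOXA11 ran from 41 to 134 CPM (read counts scaled to the size of the library) in endometrium and reached at most 0.259 CPM in conceptuses, while the trophectoderm factor CDX2 was between 11 and 29.4 CPM in conceptuses and at most 0.566 CPM in endometrium. No 2 libraries held identical counts. In 22 of the 27 conceptus samples title and description disagree on the animal or its length. The columns of the count table carry the titles, which were used. The conceptus differences of MYD88 and MAVS are given with both mappings. Recipients, lengths and pairs within a uterus follow the titles alone.

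The RNA helicases rose in pregnant endometrium in both fertility classes, DDX58 20-fold in HF and 12.9-fold in SF heifers. DDX58 stood at 31.4, 59.0, 39.0, 53.3 and 39.2 CPM in the 5 NP-HF libraries and at 535, 1028, 851, 848 and 1175 CPM in the 5 P-HF libraries. It stood at 36.8, 46.1, 43.1, 48.5 and 110.6 CPM in NP-SF and at 806, 466, 539, 733 and 1139 CPM in P-SF. Every pregnant library lay above every non-pregnant library of its class, and NP-SF replicate 5 was the highest non-pregnant animal of its class. The difference was 4.32 ± 0.34 on the log2 scale in HF (SE, n = 5 against 5, adjusted p = 5.71e-09) and 3.69 ± 0.33 in SF (adjusted p = 6.62e-08). In a later bovine annotation (ARS-UCD2.0, not the build of these counts) DDX58 carries the symbol RIGI and overlaps TOPORS, a ubiquitin and SUMO ligase gene, and no source used here says whether strand entered the counting, so reads of the pair cannot be told apart. TOPORS rose by 0.26 ± 0.07 in HF (adjusted p = 0.0104), was 0.07 ± 0.07 in SF (adjusted p = 0.664), and stayed between 87.8 and 122 CPM in all 25 libraries.

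IFIH1 rose 10.7-fold in HF and 7.89-fold in SF heifers. It was measured at 32.7, 34.1, 34.5, 51.5 and 34.5 CPM in NP-HF against 245, 471, 413, 396 and 473 CPM in P-HF. In SF heifers the levels were 36.8, 42.3, 38.3, 41.1 and 66.0 CPM without pregnancy and 378, 235, 225, 332 and 599.5 CPM with it. The ranges did not overlap in either class; the lowest pregnant libraries were P-HF replicate 1 and P-SF replicates 2 and 3. The log2 difference was 3.42 ± 0.25 in HF (adjusted p = 2.7e-09) and 2.98 ± 0.25 in SF (adjusted p = 3.41e-08).

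DHX58, the regulator of the family, rose by about as much as IFIH1. Its levels were 22.8, 24.5, 21.5, 27.0 and 21.3 CPM in NP-HF and 138, 291, 310, 243 and 338 CPM in P-HF. They were 22.6, 26.1, 19.9, 21.2 and 42.3 CPM in NP-SF and 293, 154, 206, 201 and 366 CPM in P-SF. P-HF replicate 1 was the lowest pregnant library and P-SF replicate 5 the highest, and the groups did not overlap. The fold was 11.3 in HF (log2 3.50 ± 0.27, adjusted p = 5e-09) and 9.24 in SF (3.21 ± 0.27, adjusted p = 3.41e-08).

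ZBP1 had the largest fold of the 8 genes in both classes, from a low starting level. In HF heifers it went from 3.05, 4.62, 3.47, 11.1 and 3.55 CPM without pregnancy to 84.3, 191, 248, 219 and 265 CPM with it. In SF heifers it went from 2.42, 5.94, 4.37, 4.397 and 20.2 CPM to 144, 113, 101, 121 and 314 CPM. NP-HF replicate 4 and NP-SF replicate 5 stood above the other non-pregnant animals of their groups, and P-SF replicate 5 stood above all other pregnant animals, but pregnant and non-pregnant ranges stayed apart. The difference was 39.3-fold in HF (log2 5.30 ± 0.57, adjusted p = 5.66e-07) and 21.4-fold in SF (4.42 ± 0.55, adjusted p = 6.77e-06). Without NP-SF replicate 5 the SF difference was 5.21.

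**Figure D1:**
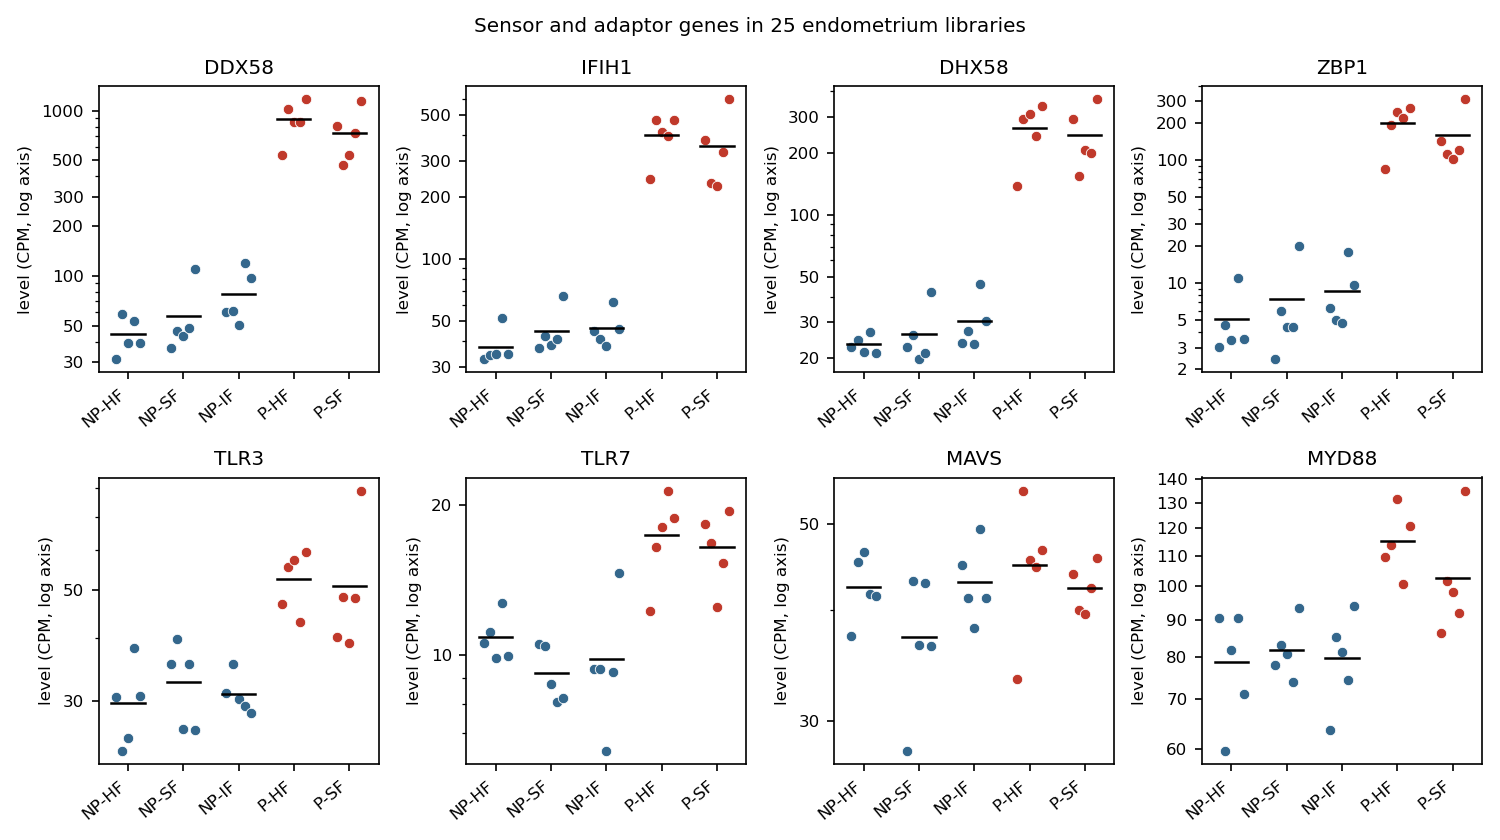
Level of each of the 8 genes (CPM, log axis, a separate scale per gene) in the 25 endometrium libraries by group; each point is 1 animal, blue non-pregnant and red pregnant, and the bar is the group mean. DDX58, IFIH1, DHX58 and ZBP1 separate pregnant from non-pregnant animals without overlap, TLR3, TLR7 and MYD88 shift by less, and MAVS lies between 27.8 and 54.5 CPM in all animals.

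The endosomal RNA receptors rose by less than 2-fold. TLR3 was at 30.5, 23.8, 25.2, 38.1 and 30.6 CPM in NP-HF and at 46.8, 55.4, 57.3, 43.2 and 59.6 CPM in P-HF, with no overlap (1.77-fold, log2 0.82 ± 0.17, adjusted p = 0.00111). In SF heifers TLR3 was at 35.5, 39.9, 26.4, 35.5 and 26.3 CPM in NP-SF and at 40.3, 48.3, 39.0, 48.1 and 78.9 CPM in P-SF. These ranges overlapped, and P-SF replicate 5 stood far above the other 4 (1.56-fold, log2 0.64 ± 0.17, adjusted p = 0.0275). Without P-SF replicate 5 the SF difference was 0.43 ± 0.14 and no longer passed (adjusted p = 0.143); it was also lost without NP-SF replicate 3 (adjusted p = 0.0793), without NP-SF replicate 5 (adjusted p = 0.0711) and when only NP-SF and P-SF were fitted (adjusted p = 0.109).

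TLR7 rose in both classes as well, at lower counts (149 to 492 per library). It was at 10.6, 11.1, 9.89, 12.8 and 10.0 CPM in NP-HF and at 12.3, 16.5, 18.1, 21.4 and 18.9 CPM in P-HF, where only P-HF replicate 1 fell into the non-pregnant range (1.61-fold, log2 0.68 ± 0.17, adjusted p = 0.0061). In SF heifers it was at 10.5, 10.5, 8.75, 8.07 and 8.22 CPM without pregnancy and at 18.3, 16.8, 12.5, 15.4 and 19.5 CPM with it. Those SF ranges did not overlap (1.79-fold, log2 0.84 ± 0.17, adjusted p = 0.00393).

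Of the adaptors, MYD88 moved and MAVS was not found to move. MYD88 was at 90.5, 59.6, 81.8, 90.3 and 71.1 CPM in NP-HF and at 109.5, 114, 131, 101 and 121 CPM in P-HF, a non-overlapping 1.46-fold rise (log2 0.55 ± 0.13, adjusted p = 0.00287). In SF heifers it was at 78.0, 83.0, 80.8, 74.0 and 93.4 CPM without pregnancy and at 86.3, 101.5, 98.2, 92.0 and 135 CPM with it. The SF ranges overlapped and the difference of 0.33 ± 0.13 did not pass (adjusted p = 0.163).

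MAVS, through which RIG-I and MDA5 signal, was at 37.4, 45.4, 46.5, 41.7 and 41.5 CPM in NP-HF and at 33.4, 54.5, 45.6, 44.7 and 46.8 CPM in P-HF. P-HF held both the lowest and the highest of these 10 animals. The difference was 0.08 ± 0.12 (95% interval -0.14 to 0.31, adjusted p = 0.661). In SF heifers MAVS was at 27.8, 43.1, 36.5, 42.9 and 36.4 CPM in NP-SF and at 43.9, 40.01, 39.6, 42.3 and 45.8 CPM in P-SF, a difference of 0.18 ± 0.12 (-0.04 to 0.41, adjusted p = 0.458). The upper ends of these intervals, 0.31 and 0.41, lie below the smallest called estimate of another member in the same class. The intervals themselves overlap. In HF the MAVS interval ends at 0.308 and that of MYD88 starts at 0.305, and in SF the MAVS interval ends at 0.406 and that of TLR3 starts at 0.312. No test between genes was run.

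Counted together, 7 of the 8 genes passed as higher (adjusted p under 0.05) for P-HF against NP-HF, where 10.2% of all 19606 tested genes were. In 6 of the 8 the P-HF range lay wholly above the NP-HF range, which held for 6.14% of tested genes. For P-SF against NP-SF 6 of the 8 were called higher, against 3.18% of tested genes, and 5 did not overlap, against 3.91%. The median log2 difference over the 8 genes was 2.12 in HF and 1.91 in SF, while over all tested genes it was -0.01 in each. In bulk tissue, more cells that express a gene and more RNA per cell cannot be told apart.

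**Figure D2:**
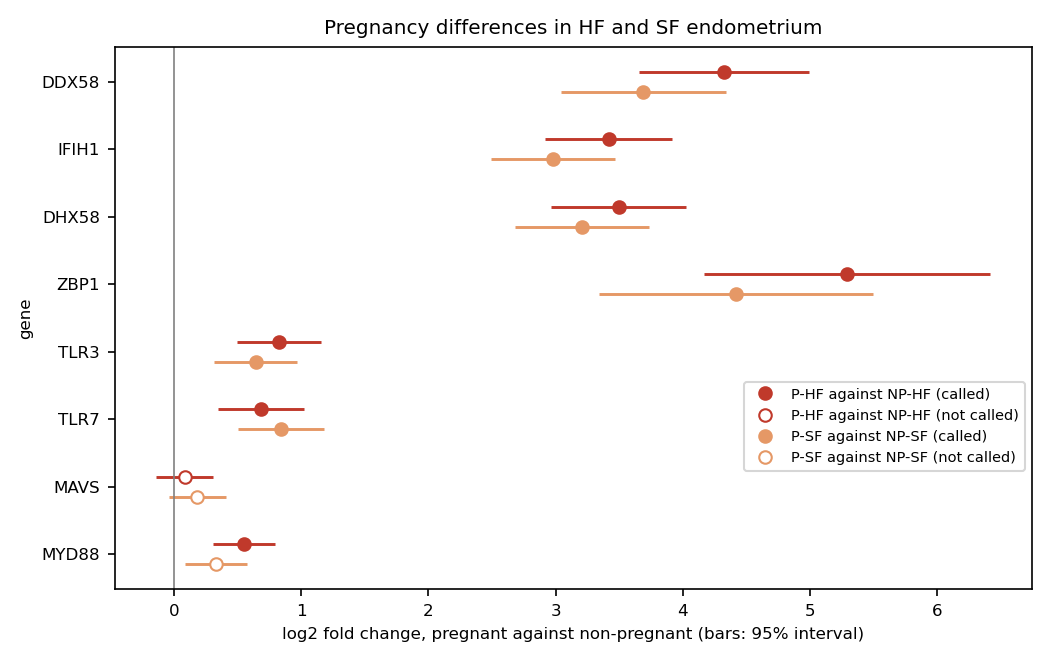
Log2 fold change of pregnant against non-pregnant endometrium for each gene in HF (red) and SF (orange) heifers, n = 5 against 5 animals; bars are 95% intervals, filled points passed an adjusted p of 0.05 and open points did not. DDX58, IFIH1, DHX58 and ZBP1 lie between 2.98 and 5.30, TLR3, TLR7 and MYD88 below 1, and the MAVS intervals cross 0.

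Markers of other cell types moved in the same contrasts. Of 9 macrophage and dendritic cell markers 4 rose in P-HF (CD68, AIF1, CSF1R and IRF8), and the summed level of the 9 was 78.1 to 124 CPM in NP-HF and 123 to 203 CPM in P-HF. In P-SF 2 of the 9 rose (AIF1 and IRF8), with sums of 79 to 115 CPM in NP-SF and 115 to 196 CPM in P-SF. No marker of the list was at 0 in any of these 4 groups, and P-SF replicate 5, the highest animal for TLR3, ZBP1 and MYD88, had a sum of 196 CPM. P-HF replicates 4 and 5 had higher sums, 201.3 and 202.5 CPM, with TLR3 at 43.2 and 59.6 CPM and MYD88 at 101 and 121 CPM. TLR7 was at 21.4 and 18.9 CPM in P-HF replicates 4 and 5 and at 19.5 CPM in P-SF replicate 5. For TLR7 these animals stood above all other pregnant animals. Of 6 stromal markers 3 fell in P-HF (COL1A1, COL1A2 and COL3A1), with sums of 12200 to 23800 CPM in NP-HF and 4830 to 8060 CPM in P-HF, and 0 of 6 were called in SF. Of 7 epithelial markers 3 rose in P-HF (CDH1, CLDN3 and CLDN4), with sums of 970 to 1290 CPM in NP-HF and 1490 to 1780 CPM in P-HF, and 1 (CDH1) rose in P-SF. In P-HF 2 of 5 endothelial markers (PECAM1 and TIE1) and 3 of 5 uterus-defining ones (ESR1, HOXA10 and HOXA11) also fell. So did 1 of 9 tested lymphocyte markers (CD8A) and 1 of 4 tested trophectoderm markers (ELF5). Of all 19606 tested genes 1997 were called higher and 2084 lower in P-HF. The lymphocyte count is near that share, and the median of its list was 0.08. The part of these marker shifts in the differences of the 8 genes was not tested.

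The size of the pregnancy difference was not found to depend on fertility class. In the interaction of pregnancy and class 0 of the 8 genes were called by edgeR, limma-voom or DESeq2, and 0 had an unadjusted p under 0.05, where 0.0051% of all tested genes were called. The estimate was below 0, a smaller rise in SF, for DDX58 (-0.63 ± 0.42, 95% interval -1.46 to 0.20), ZBP1 (-0.88 ± 0.70, -2.25 to 0.50) and MYD88 (-0.22 ± 0.18, -0.57 to 0.12). It was also below 0 for IFIH1, DHX58 and TLR3, and above 0 for TLR7 (0.16 ± 0.24) and MAVS (0.10 ± 0.16). The DDX58 and ZBP1 intervals include a rise smaller by over 1 log2 unit in SF heifers.

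Among pregnant animals P-SF and P-HF overlapped for all 8 genes. None was called in P-SF against P-HF by edgeR, limma-voom or DESeq2, 0 had an unadjusted p under 0.05, and 0% of all tested genes were called. The DDX58 difference was -0.27 ± 0.30 (95% interval -0.85 to 0.31), that of MYD88 -0.17 ± 0.12 (-0.41 to 0.08) and that of TLR7 -0.08 ± 0.17 (-0.42 to 0.25). Single animals stood apart: P-SF replicate 5 ranked highest of the 10 pregnant animals for 5 of the 8 genes and among the top 3 for all 8, and P-HF replicate 1 ranked lowest for 4.

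Without pregnancy the 3 fertility classes overlapped for every gene. NP-IF animals stood at 60.3, 61.1, 50.6, 119.8 and 96.5 CPM of DDX58, above most NP-HF animals (23 of 25 animal pairs, log2 0.81 ± 0.30, unadjusted p = 0.0134), but the difference did not pass over all genes (adjusted p = 0.903). It was the single gene of the 8 with an unadjusted p under 0.05 in NP-IF against NP-HF. In that contrast, in NP-SF against NP-HF and in NP-IF against NP-SF 0 of the 8 were called by edgeR, limma-voom or DESeq2, and 0% of all tested genes were called by edgeR in each. In the latter 2 contrasts 0 of the 8 had an unadjusted p under 0.05.

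NP-IF animals for the other genes ran from 37.8 to 61.6 CPM for IFIH1, from 23.5 to 46.3 CPM for DHX58 and from 4.72 to 17.98 CPM for ZBP1. They ran from 28.3 to 35.6 CPM for TLR3, from 6.45 to 14.6 CPM for TLR7, from 38.2 to 49.3 CPM for MAVS and from 63.6 to 94.0 CPM for MYD88. NP-IF replicate 4 and NP-SF replicate 5 held the highest 2 places of the 15 non-pregnant animals for DDX58, IFIH1, DHX58 and ZBP1. For TLR3 the same animals ranked 10 and 13, and for TLR7 11 and 13, so that they were not high in every gene. By group mean the order for DDX58 was P-HF, P-SF, NP-IF, NP-SF and NP-HF, and the single step between neighbours without overlap was from P-SF to NP-IF; the same held for IFIH1, DHX58 and ZBP1. For TLR3, TLR7, MAVS and MYD88 every pair of neighbours in the order overlapped.

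Genes of the rest of the pathway are counted against the same shares of all tested genes, 10.2% called higher in P-HF and 3.18% in P-SF, and 2084 of 19606 called lower in P-HF. Of 19 measured genes that carry the signal onward from MAVS 11 rose in P-HF and 0 fell, with a median log2 difference of 0.26, and 5 rose in P-SF. IRF7, a transcription factor that drives interferon genes, rose by 3.87 ± 0.26 in HF and 3.34 ± 0.26 in SF. TRIM25, the ubiquitin ligase that activates RIG-I, rose by 1.65 ± 0.15 and 1.4 ± 0.15, and IRF3, the factor that RIG-I signalling activates first, by 1.34 ± 0.12 and 0.99 ± 0.12. In the other direction of control, 6 of 12 genes that restrain RNA sensing rose in P-HF and 1 fell (median 0.13), and 2 rose in P-SF. USP18, which removes ISG15 from proteins and blocks interferon receptor signalling, rose by 4.59 ± 0.38 and 4.04 ± 0.37. ADAR, which edits RNA so that MDA5 does not bind it, rose by 2.30 ± 0.18 and 1.94 ± 0.18. RNF125, a ubiquitin ligase that marks RIG-I for degradation, fell in P-HF by 0.54 ± 0.13.

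Of 15 DNA sensing genes 3 rose in each class and 1, RNASEH2A, a subunit of an enzyme that removes RNA from DNA, fell in each. The median of the list was 0.11 in HF and 0.17 in SF. IFI16, a DNA sensor, rose by 3.43 ± 0.31 in HF and 2.87 ± 0.30 in SF, and MB21D1, which encodes cGAS, the enzyme that answers cytosolic DNA with a second messenger, by 2.58 ± 0.27 and 2.18 ± 0.26. TREX1, an exonuclease that clears such DNA, rose by 1.81 ± 0.24 and 1.49 ± 0.24. The list around ZBP1 and necroptosis held RIPK1, RIPK3, MLKL, CASP8, FADD and ADAR. It is not limited to genes that promote necroptosis, and ADAR is also in the list of restraint. All 6 rose in P-HF (median 1.17) and 5, all but FADD, in P-SF (median 0.90). Among them MLKL, which breaks the plasma membrane in necroptosis, rose by 2.08 ± 0.28 and 2.13 ± 0.28, and RIPK3, the kinase that activates it, by 1.3 ± 0.18 and 0.82 ± 0.18.

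Of 8 partners of the endosomal Toll-like receptors 1 rose in P-HF, a share near that of all genes: UNC93B1, which escorts TLR3 and TLR7 to endosomes (0.72 ± 0.17), and 0 passed in P-SF (UNC93B1 0.57 ± 0.17, adjusted p = 0.0543). Of 20 genes of the surface receptors and MYD88 signalling 4 rose and 1 fell in P-HF (median 0.02), and 2 rose in P-SF. IRF5, a transcription factor activated below MYD88, rose by 0.86 ± 0.17 in HF and 0.79 ± 0.17 in SF, TLR4, the receptor for bacterial lipopolysaccharide, by 0.43 ± 0.10 and 0.57 ± 0.10, and TRAF6, a ubiquitin ligase shared with the MAVS list, by 0.33 ± 0.08 in HF. Of 13 other RNA sensing genes 2 rose in each class: ZNFX1, a helicase that binds viral RNA (3.24 ± 0.23 and 2.84 ± 0.22), and EIF2AK2, the kinase PKR that stops translation (3.02 ± 0.30 and 2.84 ± 0.30). NLRP1, an inflammasome sensor, fell in P-HF by 1.45 ± 0.22 and was -0.41 ± 0.21 in P-SF (adjusted p = 0.346). The lists share TRAF6, RIPK1, FADD, CASP8 and ADAR, so their counts are not independent.

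**Figure D3:**
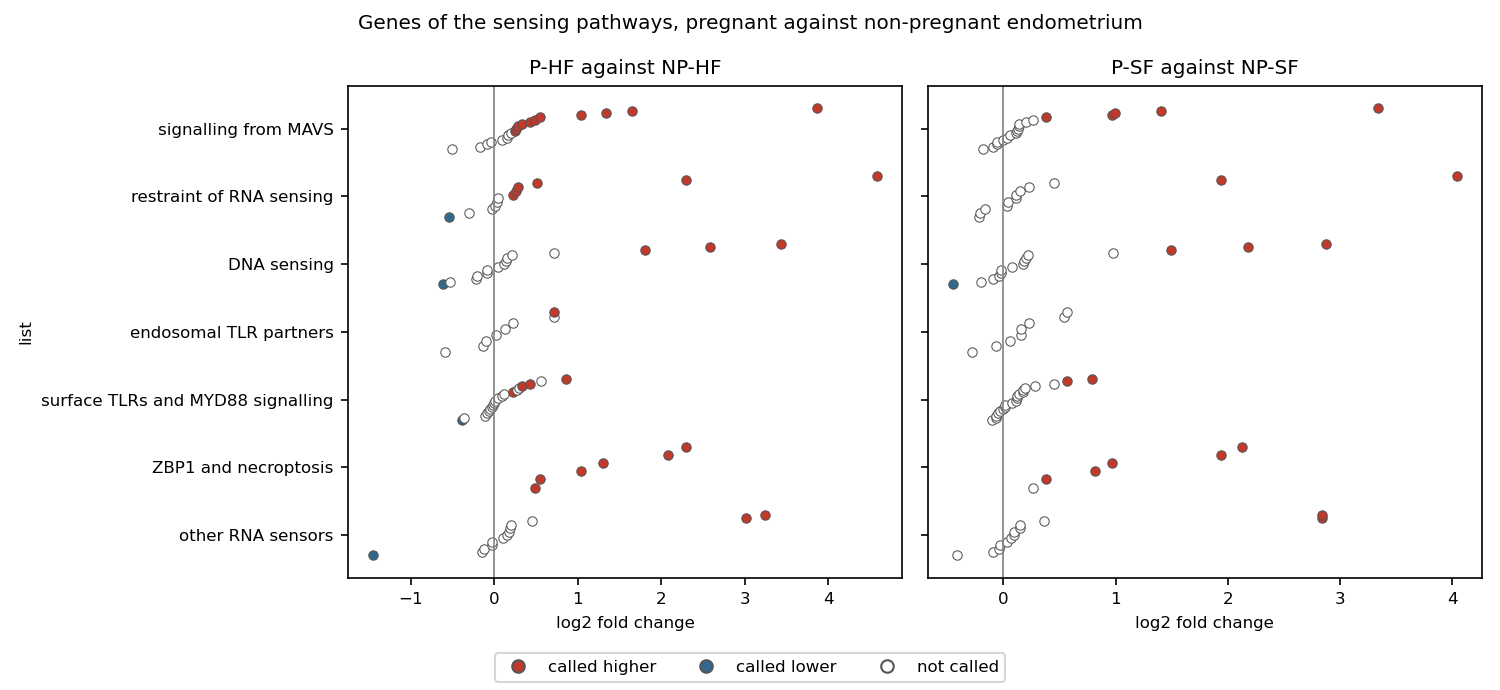
Log2 fold change of each tested gene in 7 pathway lists for P-HF against NP-HF (left) and P-SF against NP-SF (right), n = 5 against 5 animals; each point is 1 gene, red called higher, blue called lower, white not called. A few genes lie far to the right (IRF7 3.87, USP18 4.59, IFI16 3.43, ZNFX1 3.24 in HF). List medians are at most 0.26 except for ZBP1 and necroptosis, where they are 1.17 in HF and 0.90 in SF.

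The genes whose levels followed a member most closely over the 25 endometrium libraries were named by Pearson's r of log2(CPM + 1), as a description; the libraries fall into 2 states, pregnant and non-pregnant, which all these values share. DDX58 was nearest to PARP14 (0.997), ISG15 and EPSTI1 (0.995 each), IFIH1 to CMPK2 (0.997), PNPT1 and IFIT3 (0.996 each), and DHX58 to UBA7 (0.996), ZNFX1 (0.995) and CMPK2 (0.994). ZBP1 was nearest to MX2 and IFI44L (0.994 each) and USP18 (0.993). TLR3 was nearest to LOC506088 (0.938), IDO1 (0.919) and CD40 (0.912), TLR7 to TNFSF13B-2 (0.934), C1R (0.927) and C1S (0.919), and MYD88 to BAK1 (0.896) and MRPL55 (0.872). For MAVS the nearest were PIK3CA (0.801), ABL2 (0.782) and IGSF6 (0.752), lower than for any other member.

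In conceptuses most of the sensors were near the limit of counting. The median level over 27 libraries was 2.65 CPM for DDX58 (87 reads), 0.491 CPM for IFIH1 (20 reads), 0.949 CPM for DHX58 (30 reads), 1.35 CPM for TLR3 (44 reads) and 0.497 CPM for TLR7 (18 reads). Every conceptus lay below every endometrium library for these 5 genes. ZBP1 had a median of 0.0973 CPM (3 reads) and was at 0 reads in 6 libraries. In these, 3 reads, set as an approximate upper limit for a count of 0, correspond to 0.0708 to 0.156 CPM. This limit covers counting error alone. ZBP1 did not reach the count filter in conceptuses and was not tested there.

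The adaptors stood at higher percents of their endometrium medians than the sensors. MAVS had a conceptus median of 26.2 CPM, 63.2% of the median of non-pregnant endometrium, and the conceptus range of 16.8 to 47.3 CPM overlapped that of endometrium. MYD88 had a median of 15.5 CPM, 19.1% of its median in non-pregnant endometrium. As for the 5 sensors above, every conceptus lay below every endometrium library for MYD88 (at most 30.1 against at least 59.6 CPM). DDX58 was at 5.23%, DHX58 at 3.97% and IFIH1 at 1.2% of their medians in non-pregnant endometrium. Of the median in pregnant endometrium MAVS was at 59.2%, MYD88 at 14.7%, DHX58 at 0.356%, DDX58 at 0.32% and IFIH1 at 0.127%. RNA of the 2 tissues was extracted with different reagents, so these percents are given with no test.

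MYD88 was the member that differed between conceptus groups: it fell in C-SF relative to C-HF-long. It ran from 9.86 through a median of 12.2 to 16.2 CPM in the 10 C-SF conceptuses, from 13.47 through 20.1 to 28.1 CPM in the 10 C-HF-long conceptuses, and from 15.3 through 21.8 to 30.1 CPM in the 7 C-HF-short conceptuses. The C-SF range overlapped the lower end of both HF groups, and a C-SF conceptus was the higher in 9 of 100 pairs with C-HF-long and in 2 of 70 pairs with C-HF-short. With the sequencing sample sheet as a covariate the difference from C-HF-long was -0.72 ± 0.16 (0.605-fold, adjusted p = 0.0102). Within the first sheet alone it was -0.75 ± 0.18 (adjusted p = 0.0238). With the recipient as a block, a limma-voom fit that kept the sheet term, it was -0.67 ± 0.16 (adjusted p = 0.0353). With counts summed per recipient, an edgeR fit with no sheet term, it was -0.66 ± 0.17 (adjusted p = 0.0363). With samples grouped by their descriptions in place of their titles it was -0.43 ± 0.21 and did not pass (adjusted p = 0.518).

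Against C-HF-short the MYD88 difference was of like size, -0.67 ± 0.17, but did not pass (adjusted p = 0.124; 0.0352 with DESeq2). With samples grouped by description it was -0.15 ± 0.22 (adjusted p = 1). Within the first sheet alone it was -0.69 ± 0.25 (adjusted p = 0.64). On the second sheet, which holds no C-HF-long library, the 3 C-SF libraries read 11.9, 16.2 and 14.8 CPM. The 4 C-HF-short libraries there read 18.6, 21.8, 23.3 and 23.3 CPM, the first 2 of them from 1 recipient, 753. No test was run within the second sheet. The difference between C-HF-short and C-HF-long was -0.05 ± 0.19 (95% interval -0.42 to 0.31, adjusted p = 0.977). Between the 2 conceptuses of a uterus MYD88 differed by 0.037 to 0.484 units of log2(CPM + 1) over 8 recipients. The difference was largest in recipient 985, with 23.3 CPM in the shorter and 16.3 CPM in the longer conceptus. Of 16 tested genes of the surface receptors and MYD88 signalling 3 fell in C-SF relative to C-HF-long, IRAK1, TAB2 and IL18R1, and 0 rose, where 833 of all 16330 genes were called lower. Markers moved in that contrast too: GATA2 and GATA3 of 7 trophectoderm markers and COL1A1, COL1A2 and DCN of 6 stromal markers fell. FLT3 of 8 tested macrophage and dendritic cell markers and TIE1 of 4 tested endothelial markers rose. Of all 16330 genes 621 were called higher. The median log2 difference of the endothelial markers was -0.56, with sums of 2.66 to 15.1 CPM in C-SF and 9.27 to 45.4 CPM in C-HF-long. The summed trophectoderm markers were 9880 to 38700 CPM in C-SF and 31400 to 48900 CPM in C-HF-long, the stromal ones 1.78 to 99.2 CPM and 4.65 to 60.5 CPM. Their part in the MYD88 difference was not tested.

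MAVS ran from 16.9 through a median of 24.2 to 29.0 CPM in C-SF, from 16.8 through 26.1 to 45.1 CPM in C-HF-long and from 18.9 through 37.4 to 47.3 CPM in C-HF-short. The groups overlapped, and the difference of C-SF from C-HF-long, -0.44 ± 0.17, did not pass (adjusted p = 0.086). It passed when C-HF-long replicate 1 (adjusted p = 0.0471) or replicate 4 (adjusted p = 0.0358) was left out, as it did without both conceptuses of recipient 778 (adjusted p = 0.0492). It was smaller with no sheet term (-0.30, adjusted p = 0.298) and with counts summed per recipient, also with no sheet term (-0.28, adjusted p = 0.408). With samples grouped by description it was -0.22 (adjusted p = 0.744).

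In all, 1 of 7 tested members was called in C-SF against C-HF-long, MYD88, where 8.9% of all 16330 tested genes were called, so that a count of 1 is near the share of all genes. In C-SF against C-HF-short 0 of 7 were called by edgeR and limma-voom and 1 by DESeq2, 1 had an unadjusted p under 0.05, and 0.00612% of all genes were called. In C-HF-short against C-HF-long 0 of 7 were called by edgeR, limma-voom or DESeq2, 0 had an unadjusted p under 0.05, and 0% of all genes were called. A slope on log2 length over the 20 conceptuses with a length in their title gave 0 of 7 by edgeR, limma-voom or DESeq2, 0 with an unadjusted p under 0.05, and 0% of 15592 genes.

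The cytosolic sensors varied from conceptus to conceptus and conceptuses of 2 recipients, as named in the titles, stood high. DDX58 read 15.7 and 9.46 CPM in the pair from recipient 825 (C-HF-short replicate 2 and C-HF-long replicate 3) and 4.53 and 7.52 CPM in the pair from recipient 778 (C-SF replicates 5 and 6). It was 1.33 to 4.68 CPM in the other 23 conceptuses. IFIH1 read 9.28 and 4.31 CPM in the pair from 825 and 2.004 and 5.20 CPM in that from 778, against 0.063 to 1.46 CPM in the others. These 4 libraries were the highest 4 of the 27 for IFIH1 and for ZBP1, where they read 0.676 and 0.524 CPM (825) and 0.937 and 2.88 CPM (778). DHX58 was highest in the pair from 825, at 8.76 and 5.35 CPM, and was 2.84 and 2.55 CPM in that from 778, within the range of the others.

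**Figure D4:**
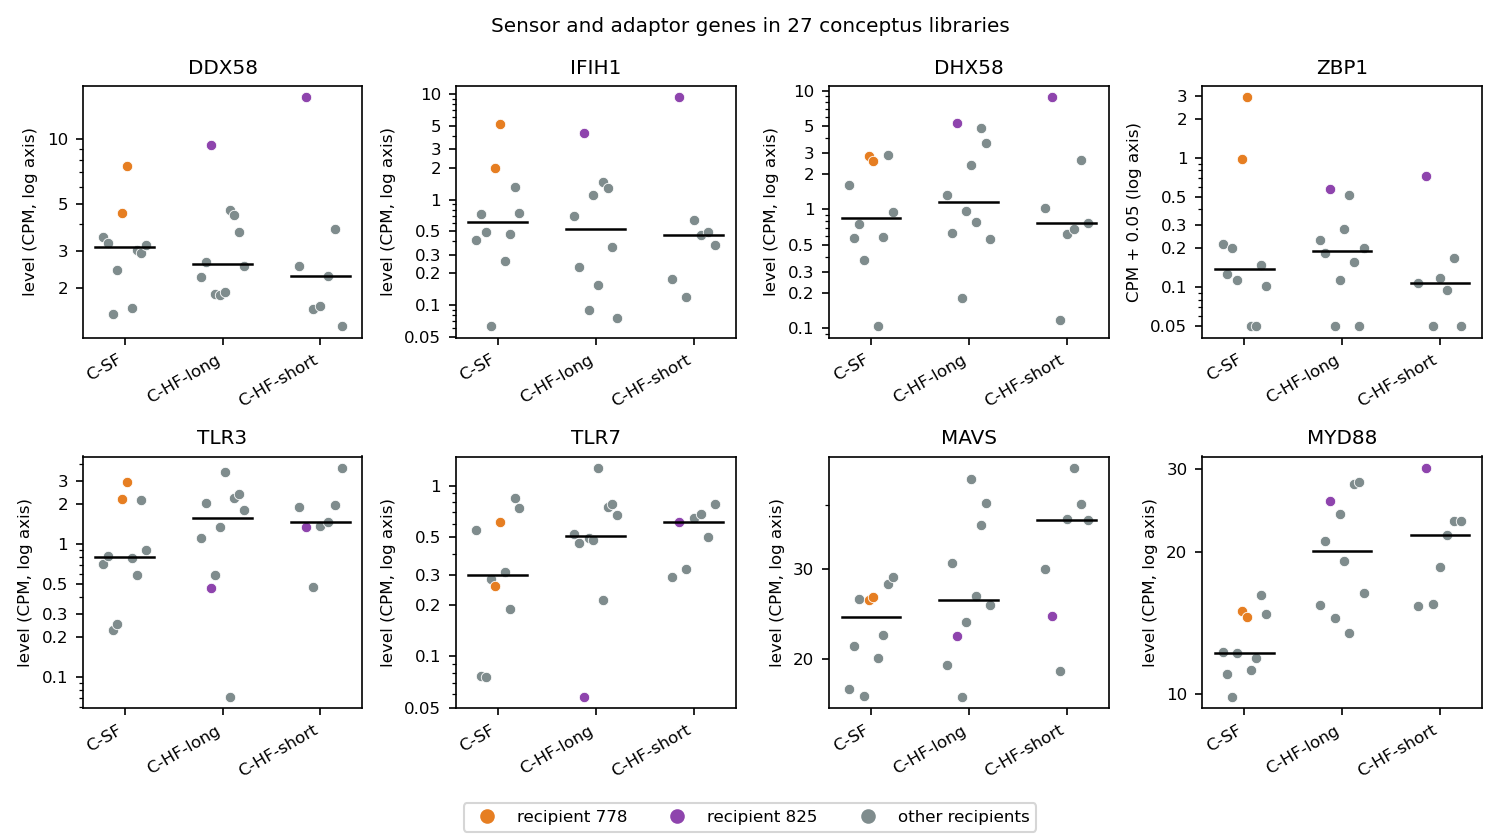
Level of each of the 8 genes (CPM, log axis; CPM + 0.05 for ZBP1, which had 6 libraries at 0) in the 27 conceptus libraries by group; each point is 1 conceptus, orange from recipient 778, purple from recipient 825, grey from the others, and the bar is the group median. The pairs from 778 and 825 lie high for DDX58, IFIH1 and ZBP1, and C-SF lies low for MYD88.

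Uterine marker levels are given beside these values. The summed level of PGR, ESR1, HOXA10, HOXA11 and MSX1 was 6.30 and 4.48 CPM in the pair from recipient 825 and 2.91 and 2.8 CPM in that from 778. In the other 23 conceptuses it ran from 0.313 through a median of 1.59 to 8.32 CPM. The 4 sums were 0.994% to 2.24% of the median in pregnant endometrium. MSX1 made up most of each sum, and HOXA10 read 0.184 and 0.116 CPM in the pair from 825 and 0 and 0.0559 CPM in that from 778. Their part in the sensor levels was not tested.

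The C-SF against C-HF-short values of the RNA helicases turned on C-HF-short replicate 2. DDX58 was -0.33 ± 0.43 with all libraries (adjusted p = 0.862) and 0.58 ± 0.40 without it (adjusted p = 0.675). IFIH1 was -0.42 ± 0.83 (adjusted p = 0.92) and 1.704 ± 0.98 without it (adjusted p = 0.584), and DHX58 was -0.65 ± 0.70 (adjusted p = 0.83) and 0.68 ± 0.76 without it (adjusted p = 0.837). None passed in either case.

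TLR3 and TLR7 showed no group difference that passed. TLR3 ran from 0.227 through a median of 0.796 to 2.94 CPM in C-SF, from 0.0715 through 1.57 to 3.46 CPM in C-HF-long and from 0.472 through 1.46 to 3.73 CPM in C-HF-short. TLR7 ran from 0.0756 through 0.298 to 0.852 CPM, from 0.0582 through 0.506 to 1.27 CPM and from 0.292 through 0.615 to 0.776 CPM in the same order. All groups overlapped, with 2 to 105 reads behind each TLR3 value and 2 to 35 behind each TLR7 value.

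Over the 27 conceptuses the genes with levels most like DDX58 were ISG15 (r = 0.884), RSAD2 (0.882) and IFIH1 (0.874), and those most like IFIH1 were ISG15 (0.945), CMPK2 (0.938) and RSAD2 (0.934). For IFIH1 the pairs from recipients 778 and 825 are the highest 4 points behind these values, and for DDX58 they hold ranks 1, 2, 3 and 5. DHX58 was nearest to SORBS2 (0.96), PARP8 (0.954) and LOC101907303 (0.939), MAVS to VASN (0.861), CHST14 (0.848) and LOC533821 (0.847), TLR3 to GPR155 (0.85), RAC2 (0.819) and LOC101906944 (0.813), and MYD88 to IRF2BP2 (0.888), PDZD8 (0.885) and WNK1 (0.877). TLR7 and ZBP1 had a mean under 1 CPM in conceptuses and were not ranked.

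Of 8 pregnant heifers with both endometrium and conceptus sequenced, the endometrium of recipient 985 was the highest in DDX58, at 1175 CPM, and its 2 conceptuses averaged 1.94 CPM. The endometrium of recipient 748 was the lowest, at 466 CPM, and its conceptus read 3.28 CPM. Endometrium of recipients 965, 971, 690, 910, 755 and 811 stood at 851, 848, 806, 733, 539 and 535 CPM. Their conceptuses read or averaged 1.92, 4.11, 3.27, 1.62, 1.97 and 2.65 CPM in that order. The relation between endometrium and conceptus was not tested. Endometrium of recipients 778 and 825 was not analysed here.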

How the data were processed

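RNA was sequenced from 25 endometrium and 27 conceptus samples. The deposited values are whole-number read counts per gene, not normalized, in 1 table; 1020 empty lines were left out. Per the submitters' processing notes the tools were HISAT2, StringTie and edgeR on build UMD3.1; the sources used here give no versions or settings. Per the labels' protocols a strand-marking kit was used. Members, lists and tests were chosen with earlier results of these data known. Members, up to 3 called members of each pathway list with the smallest p in P-HF against NP-HF, and the 3 genes most like each member were named, except 1 gene that is not reported here.

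Low genes were dropped by filterByExpr (a count of 10 and a total of 15 at least), libraries were scaled by TMM, and the quasi-likelihood test of edgeR 4.0.16 in R 4.3.3 was adjusted over all tested genes by Benjamini-Hochberg; a gene was called under 0.05. The 25 endometrium libraries shared 1 fit, the conceptuses another, with sample sheet (20 libraries on the first, 7 on the second, of these 3 C-SF and 4 C-HF-short) as covariate. The sheet was read from the descriptions, the field that disagrees with the titles in 22 of the 27 conceptus samples. CPM values use the same scaling. ± is the SE of a log2 difference. Endometrium samples are separate animals per their labels. Scripts were tested on simulated data. Alternatives were limma-voom (limma 3.58.1), DESeq2 1.42.0 and those given at the end. The promoter and protein comparisons first planned were not analysed here. The match of names to ARS-UCD2.0 found 7 members by symbol and DDX58 as RIGI.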

Additional observations from a re-analysis of the deposited data

Results flagged for a closer look

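In 17 instances the highest animal or conceptus of a group stood apart from the others by Dixon's gap test, among 64 combinations of gene and group. For values that follow a normal distribution chance gives about 1 in 20 groups. The test was run on CPM without logs, and their distribution was not checked, so the 17 cannot be set against that rate. The same libraries recurred, so the 17 are not independent.

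NP-SF replicate 5 stood apart for the 3 helicases and ZBP1: DDX58 at 110.6 CPM against 36.8 to 48.5 CPM in the other 4 animals, IFIH1 at 66.0 CPM against 36.8 to 42.3, DHX58 at 42.3 CPM against 19.9 to 26.1, and ZBP1 at 20.2 CPM against 2.42 to 5.94. NP-HF replicate 4 stood apart for IFIH1, at 51.5 CPM against 32.7 to 34.5, and ZBP1, at 11.1 CPM against 3.05 to 4.62. P-SF replicate 5 stood apart for TLR3, at 78.9 CPM against 39.0 to 48.3, and ZBP1, at 314.0 CPM against 101 to 144.

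Among conceptuses C-HF-short replicate 2, from recipient 825, stood apart for DDX58 (15.7 CPM against 1.33 to 3.79), IFIH1 (9.28 against 0.118 to 0.642), DHX58 (8.76 against 0.118 to 2.63) and ZBP1 (0.676 against 0 to 0.118). Its uterine companion C-HF-long replicate 3 stood apart for DDX58 (9.46 CPM against 1.87 to 4.68) and IFIH1 (4.31 against 0.0748 to 1.47). C-SF replicate 6, from recipient 778, stood apart for DDX58 (7.52 CPM against 1.51 to 4.53), IFIH1 (5.20 against 0.063 to 2.004) and ZBP1 (2.88 against 0 to 0.937).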

How the results depend on the processing

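The 7 members called in P-HF against NP-HF were called under all 15 alternatives, which were DESeq2 size factors, no filter on low counts, DESeq2, limma-voom, a fit of the compared groups alone and leaving out each of the 10 libraries. In P-SF against NP-SF the count was 5 or 6, since TLR3 was lost under 4 of 15, while the other 5 called members were called under all 15. In the interaction, in P-SF against P-HF and in the 3 non-pregnant comparisons the count was 0 throughout. UNC93B1 passed in P-SF against NP-SF with DESeq2 (adjusted p = 0.0247), in the fit of these groups alone (0.041) and without P-SF replicate 3 (0.0418) or replicate 4 (0.0392), and TOPORS did not pass in HF in the fit of the compared groups alone (0.0641). TLR7 in P-SF against P-HF changed sign without P-SF replicate 3 or P-HF replicate 4 (0.003 each), with a range of -0.184 to 0.003 over single libraries left out.

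In C-SF against C-HF-long the count of called members was 0 when groups followed the descriptions, 2 without both conceptuses of recipient 778 (an alternative chosen after seeing the data, as was leaving out recipient 825), and from 1 to 2 over single libraries left out, with MAVS added without C-HF-long replicate 1 or 4; the cause was not tested. In C-SF against C-HF-short it was 1 with DESeq2. There DDX58, IFIH1 and DHX58 changed sign with limma-voom (0.044, 0.385 and 0.049) and without C-HF-short replicate 2 (0.582, 1.704 and 0.684). They also did without both conceptuses of recipient 825 (0.582, 1.703 and 0.684). DDX58 and IFIH1 also changed sign with the recipient as a block (0.073 and 0.408), itself a limma-voom fit. Over single libraries left out DDX58, IFIH1 and DHX58 ranged from -0.501 to 0.582, -0.961 to 1.704 and -1.075 to 0.684. MYD88 in C-HF-short against C-HF-long, near 0, changed sign with no sheet term (0.038) and summed per recipient, which had no sheet term either (0.046). It also did without C-HF-short replicate 1 (0.036) or 3 (0.032) or C-HF-long replicate 8 (0.003) or 9 (0.005). Its lowest value was -0.298, without C-HF-short replicate 2. None of these reversed values passed the test. Of 1167 gene values under an alternative, 1134 kept their direction and side of the threshold.

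Over all genes, calls in P-SF against NP-SF were 798, 425 without P-SF replicate 5 and 1200 with DESeq2; P-SF against P-HF had 0, and 116 without P-SF replicate 5. C-SF against C-HF-long had 1454, 0 by descriptions and 2201 with DESeq2; C-SF against C-HF-short had 1, and 134 with DESeq2; the length slope had 0, and 417 with no sheet term. No paired test was run, although recipients 825, 894, 971 and 985 each gave a C-HF-short and a C-HF-long conceptus. Recipient numbers entered the conceptus alternatives as a block or through summed counts. The low conceptus counts of ZBP1, TLR7 and IFIH1 limit what could be detected there.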
